A study of Mus musculus with 4 samples.

Results

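Among the genes of the mouse testis that still carry, or carried when the expression table was made, the name of a RIKEN cDNA clone, 120 were much lower in Adad2 knockout testes. They were chosen on the measured values themselves: the name in the table ends in Rik, the wild type mean is at least 1 on the log2 RPKM scale (2 RPKM, reads per kilobase of transcript scaled to library depth), and the knockout mean is lower by at least 2 log2 units, which is 4-fold. They are 120 of 26068 named genes in the table, of 2488 with a Rik name, and of 1115 Rik genes that reached the wild type level (10.8%). RNA was measured by sequencing in whole testes of B6D2F1 males at 24 days. The knockout group holds 2 libraries from mice homozygous for the Adad2 knockout, and the wild type group holds 2 libraries from mice of the same strain and age. The labels do not say whether the 2 libraries of a group come from separate animals. No Cre, transgene or treatment is named for either group, and the form of the deletion is not given in the labels. ADAD2 is a protein with an adenosine deaminase-like domain found in male germ cells.

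RIKEN clone names were given to mouse transcripts that were sequenced from full-length cDNA libraries before any function was known. Many were read first from testis. In the mouse the first wave of spermatogenesis runs nearly in step after birth, so that a testis of this age holds spermatogonia, spermatocytes and round spermatids, and elongating spermatids have only begun to form. Spermatids switch on a large set of genes used in no other cell, among them short proteins of the acrosome, the tail and the condensing chromatin, and many long non-coding RNAs.

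Because the members were chosen on the difference between knockout and wild type in all 4 libraries, that difference is given as a description and not as a test. Over the 120 genes it ran between -7.72 and -2.003 log2 units, with a median of -2.96, a level 7.80-fold lower in knockout. Among the 120 genes, 57 were lower by at least 3 log2 units, 29 by at least 4 and 11 by at least 5. The median level over the members was 0.05 and -0.80 log2 RPKM in the 2 knockout libraries, against 3.04 and 2.88 log2 RPKM in the 2 wild type libraries. Knockout and wild type libraries did not overlap in any of the 120, while 16.8% of all genes tested had both knockout values below both wild type values; the choice of members fixes their separation.

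**Figure D1:**
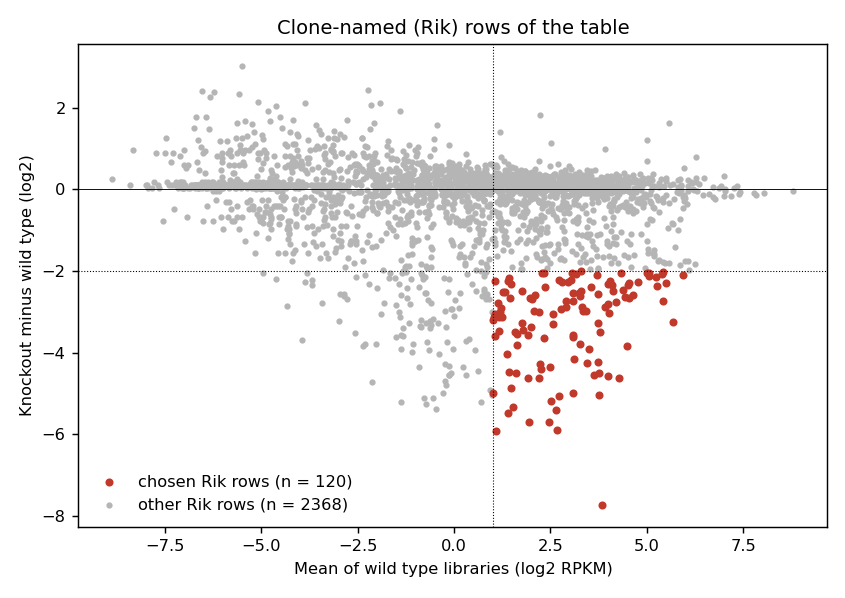
Each point is a Rik gene, with its wild type mean (log2 RPKM) on the horizontal axis and knockout minus wild type (log2) on the vertical axis; dotted lines mark the thresholds, and the 120 members are red. The members lie between -7.72 and -2.003, while most other Rik genes right of the level threshold lie near 0.

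The other 995 Rik genes that reached the wild type level had a median difference of 0.04 log2 units, and 777 of them lay within 0.5 log2 units of no difference. Another 119 were lower in knockout by 1 to 2 log2 units. No Rik gene was higher in knockout by 2 log2 units at a knockout mean of at least 1, and 6 were higher by 1. A further 117 Rik genes were lower by at least 2 log2 units but had a wild type mean under 1 and are not members. Among the 10181 other genes that reached the wild type level, 233 (2.29%) met both thresholds, so that the clone-named genes are 34.0% of the 353 genes of any name that did. Of the 50 lowest differences in the whole table, 11 belong to members.

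In limma's test across 13414 genes with a mean of at least 0 log2 RPKM over the 4 libraries, 7.15% of genes were called lower in knockout (threshold 0.05 after Benjamini-Hochberg adjustment) and 1.22% were called higher. Only 90 of the 120 members passed that level filter, and the 30 others were not tested. Of the 90, 80 (88.9%) were called lower, a count that the choice of members by the same difference fixes in large part and that is not evidence about them. Of the other 1223 Rik genes tested, from which the members are left out, 156 (12.8%) were called lower and 18 (1.47%) higher. The calls lean on the first wild type library: without it limma called 0 members and 0 genes of any name, while 88 members and 2357 genes of any name had an unadjusted p under 0.05; without the second wild type library it called 48 members, with 288 genes of any name lower and 22 higher. Without the first knockout library 405 genes were called higher and without the second 494, against 163 with all 4 libraries.

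Adad2 itself was measured at 3.73 and 3.30 log2 RPKM in knockout, against 4.66 and 4.47 log2 RPKM in wild type. Its RNA fell by 1.05 log2 units (SE 0.16, limma adjusted p = 0.00604), so it was reduced but not lost, and the table does not show which exons were read. The adjusted p was 0.143 without the first wild type library and 0.0838 without the second. The depth of the libraries, estimated from the smallest steps of the values, was 33000000 and 29400000 reads in knockout and 30200000 and 36900000 reads in wild type. The Sertoli cell list, the nurse cells of the testis, summed to 403 and 407 RPKM in knockout against 336 and 313 RPKM in wild type, so defining cells of the labelled tissue were present in all 4 libraries. Among the Rik genes called higher, the 3 with the largest increase were 1700006A11Rik, with 7.34 and 7.03 log2 RPKM in knockout against 5.58 and 5.57 log2 RPKM in wild type (adjusted p = 0.000278), 4933404K08Rik, higher by 1.58 log2 units (adjusted p = 0.0387), and C920006O11Rik, higher by 1.39 log2 units (adjusted p = 0.00239).

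Spermatid markers moved with the members. All 12 listed genes of elongating spermatids were below 0 in their difference, 11 of them by at least 1 log2 unit, and their summed level was 232 and 163 RPKM in knockout against 1196 and 1135 RPKM in wild type. Prm1, the protamine that packs sperm DNA, stood at 2.32 and 1.12 log2 RPKM in knockout, against 6.98 and 7.04 log2 RPKM in wild type. All 12 genes of round spermatids and the acrosome were below 0 as well, 10 of them by at least 1 log2 unit, with sums of 158 and 124 RPKM in knockout against 399 and 351 RPKM in wild type. The 10 pachytene spermatocyte genes had a median difference of 0.10 log2 units, with 0 lower by 1, and sums of 1983 and 1849 RPKM in knockout against 1764 and 2047 RPKM in wild type. Among the genes tested, none of the lists for spermatogonia, Sertoli, Leydig, peritubular and endothelial, or immune cells held one lower by 1 log2 unit, and the median differences of these lists lay between 0.10 and 0.29. The 4 red blood cell genes had a median difference of -0.74, with sums of 31.6 and 39.97 RPKM in knockout against 83.9 and 40.7 RPKM in wild type. The first wild type library alone was high in this sum, through the globin genes Hba-a1, Hba-a2 and Hbb-b1. Alas2 was lowest in that library, with 1.55 and 1.74 log2 RPKM in knockout against 1.39 and 1.56 log2 RPKM in wild type. The part of any of these cell types in the members' values was not tested, and in whole testes fewer spermatids and less RNA per spermatid cannot be told apart.

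The clone names hide genes that have since been named. RefSeq tables matched 115 members by name or synonym, and 57 of the 120 now carry a descriptive symbol while 63 still carry the clone name. Gencode M21 matched 113 by Ensembl identifier and types 81 as protein coding, 30 as long non-coding and 2 as pseudogenes. The 30 non-coding genes comprise 15 lincRNAs, 11 antisense RNAs and 4 processed transcripts. RefSeq and Gencode disagree on the type of 5 of the 109 genes that both describe, namely 4921528I07Rik, 4933400A11Rik, 4930571K23Rik, 4933427I04Rik and 1700067P10Rik. Coding and non-coding members had median differences of -2.94 and -3.06 log2 units. Both were chosen by the same threshold on this difference, so the likeness of the medians is not a result about gene type. Their wild type levels were further apart, at medians of 3.28 and 1.86 log2 RPKM.

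**Figure D2:**
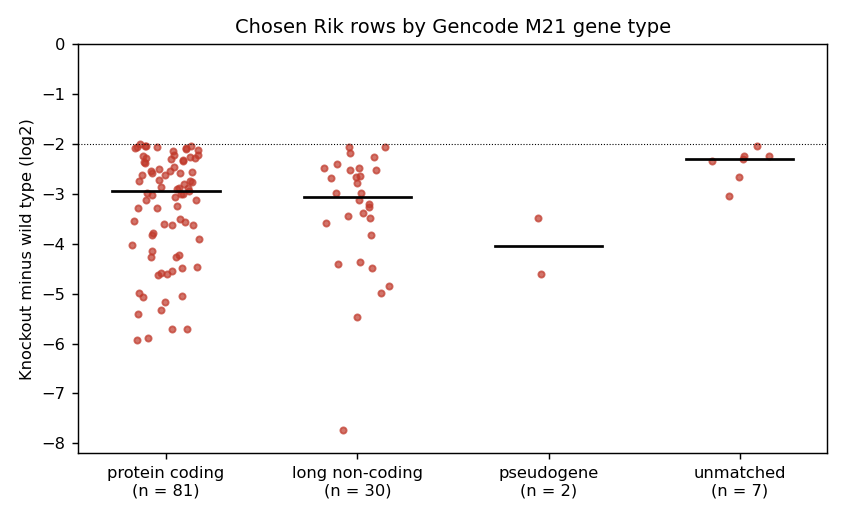
Knockout minus wild type (log2) is plotted for each member by gene type in Gencode M21, with a bar at the median and a dotted line at the threshold. The 81 protein-coding genes have a median of -2.94 and the 30 long non-coding genes a median of -3.06, over ranges that overlap.

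Proteins of the coding members are short. Their median length, computed from the longest coding sequence in Gencode M21, was 235 residues, and 42 of 81 (51.9%) were under 250 residues. Lengths ran between 86 residues in 1700092M07Rik and 2202 residues in Ccdc187. The median was 287 residues in the other Rik genes of the same wild type level, 375.5 in the other genes past both thresholds and 456 in all other genes of that level. Shares of gene structure and type were taken over the genes matched in Gencode M21, 113 of the members and 907 of the other Rik genes. A single exon was annotated in 15.04% of these members and 7.61% of these other Rik genes. The share was 18.7% in the other genes past both thresholds and 4.67% in all other genes. The share typed as long non-coding was 26.5% among the members and 26.0% among the other Rik genes, against 9.13% of the other genes past both thresholds and 3.49% of all others.

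The 120 genes lie on 19 chromosomes, with 14 each on chromosomes 2 and 11, 10 on the X, and none on the Y or on chromosome 10. The X holds 8.33% of the members, 3.42% of the other Rik genes of that level, 5.58% of the other genes past both thresholds and 3.19% of all other genes of that level. By strand, 59 lie on the plus and 61 on the minus strand. These shares are descriptions, since neighbouring and related genes are not independent of each other.

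Promoter sequences, credited to RefSeq on GRCm38.p6, were at hand for 98 members, as 118 windows of 250 bases before and 50 bases after a start site. Short promoter motifs, chosen after the values were seen, were counted on both strands. The full cyclic AMP response element TGACGTCA, the kind bound by the spermatid factor CREM, lay in 3 of the 118 windows (2.54%), against 3.27% of windows of the other Rik genes and 1.79% of all 32851 windows. The shorter TGACG, which the full element contains, lay in 14.4% of the members' windows, 31.2% of those of the other Rik genes and 20.8% of all. The RFX-type letters GTTGCC lay in 22.9%, against 16.5% in the other Rik genes and 12.5% of all, and TATAAA lay in 11.02%, against 7.67% in the other Rik genes and 13.6% of all. A match is a string of letters and not a shown binding site.

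The 250 bases before the start site are shown for 2 of the 3 members whose windows hold the full element. The element is in capitals, and the remaining member's sequence is not shown. Sox5os3 (4933425H06Rik) lies opposite the transcription factor gene Sox5, and its window is chr6:144672618-144672867 on the plus strand, while 4930525G20Rik has chr13:67830986-67831235 on the minus strand; the element ends 42 and 46 bases before the start.
Sox5os3: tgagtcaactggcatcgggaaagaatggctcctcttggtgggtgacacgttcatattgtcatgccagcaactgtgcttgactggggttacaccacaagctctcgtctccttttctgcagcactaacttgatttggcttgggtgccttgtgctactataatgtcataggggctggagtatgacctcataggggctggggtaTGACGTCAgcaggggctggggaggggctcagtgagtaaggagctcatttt
4930525G20Rik: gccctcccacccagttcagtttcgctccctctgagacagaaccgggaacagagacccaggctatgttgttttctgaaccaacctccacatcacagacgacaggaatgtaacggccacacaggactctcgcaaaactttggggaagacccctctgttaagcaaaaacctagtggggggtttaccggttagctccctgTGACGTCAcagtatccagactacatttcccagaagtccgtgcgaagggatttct

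For GTTGCC the 3 members with the lowest difference among those that hold it before the start are shown, again with the motif, or its reverse complement GGCAAC, in capitals. They are Tex37 at chr6:70918923-70919172 on the minus strand, 4930407I10Rik at chr15:82058901-82059150 on the plus strand and 4930583P06Rik at chr2:124222359-124222608 on the minus strand. All 5 are printed in the direction of transcription.
Tex37: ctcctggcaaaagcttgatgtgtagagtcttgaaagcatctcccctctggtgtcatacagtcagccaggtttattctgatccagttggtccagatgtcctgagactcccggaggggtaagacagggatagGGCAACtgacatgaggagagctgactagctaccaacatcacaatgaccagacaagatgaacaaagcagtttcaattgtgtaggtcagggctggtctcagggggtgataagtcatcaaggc
4930407I10Rik: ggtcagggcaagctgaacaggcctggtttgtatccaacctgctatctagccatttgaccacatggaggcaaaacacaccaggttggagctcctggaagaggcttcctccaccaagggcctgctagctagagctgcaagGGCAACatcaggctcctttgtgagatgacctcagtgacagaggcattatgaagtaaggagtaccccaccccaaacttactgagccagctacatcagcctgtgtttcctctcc
4930583P06Rik: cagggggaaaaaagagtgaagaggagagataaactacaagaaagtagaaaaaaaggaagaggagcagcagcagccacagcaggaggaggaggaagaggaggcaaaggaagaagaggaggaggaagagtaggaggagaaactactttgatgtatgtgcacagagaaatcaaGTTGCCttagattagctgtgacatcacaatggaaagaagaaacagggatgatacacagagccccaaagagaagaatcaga

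The lowest difference belonged to 1700031F10Rik, an antisense RNA at chr6:88172596-88175672 (mm9, minus strand). Its level was -4.55 and -3.23 log2 RPKM in knockout, against 3.87 and 3.797 log2 RPKM in wild type. In estimated reads that is 0 and 2 in knockout, against 282 and 328 in wild type, a ratio of reads per library depth of 283-fold, with an exact 95% counting interval of 78.1 to 2346. It is the second lowest of all genes in the table, after Dnajb8, a testis chaperone gene on the opposite strand, which differed by -8.07 log2 units. Dnajb8 was measured at -5.03 and -3.28 log2 RPKM in knockout, against 4.005 and 3.82 log2 RPKM in wild type. The exons of the antisense RNA share 525 of their 639 bases (82.2%) with Dnajb8, and RefSeq lists the clone name as a synonym of Dnajb8. Strand use in counting is not given in the sources used here, so the reads of the pair cannot be told apart.

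Nudt16l2 (1700080E11Rik), a relative of the Nudix hydrolases, was at -4.84 and -4.83 log2 RPKM in knockout, against 0.92 and 1.24 log2 RPKM in wild type. That rests on 1 read in each knockout library, against 58 and 88 in wild type, a ratio of 67.8-fold (counting interval 18.4 to 565). Spertl (4921530L21Rik) was at -2.93 and -3.50 log2 RPKM in knockout, against 2.66 and 2.69 log2 RPKM in wild type, with 5 and 3 reads in knockout against 224 and 280 in wild type. In both genes the 2 knockout libraries lie far below wild type, and at so few reads their closeness to each other says little about their spread.

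Several of the next genes differed more between the knockout libraries. Tex37 (1700011F03Rik), a testis-expressed protein of 180 residues, was at -1.75 and -4.74 log2 RPKM in knockout, against 2.71 and 2.21 log2 RPKM in wild type, from 8 and 0 reads in knockout. The coding gene 1700012A03Rik was at -2.47 and -5.04 log2 RPKM in knockout, against 1.76 and 2.14 log2 RPKM in wild type, from 6 and 0 reads in knockout. H2al3 (4930557A04Rik) was at -1.38 and -4.17 log2 RPKM in knockout, against 2.65 and 2.62 log2 RPKM in wild type, from 7 and 0 reads in knockout. A library without reads carries the value of 0.9 read in the table, so these differences depend on that value.

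The lincRNA 4930405D11Rik had the higher value in the second knockout library, at -4.94 and -3.20 log2 RPKM in knockout, against 1.41 and 1.40 log2 RPKM in wild type. For 1700016C15Rik the levels were -3.08 and -4.50 log2 RPKM in knockout, against 1.53 and 1.55 log2 RPKM in wild type. The small protein gene 1700042G07Rik, with 90 residues, had -1.67 and -3.66 log2 RPKM in knockout, against 2.50 and 2.53 log2 RPKM in wild type. Smim23 (1700008A04Rik), named as a small integral membrane protein, completes the 10 lowest, with -1.34 and -3.34 log2 RPKM in knockout, against 2.81 and 2.65 log2 RPKM in wild type. The widest gap between the wild type libraries of these 10 genes was 0.50 log2 units, in Tex37.

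Estimated reads could be given for 113 members. Of these, 5 had a knockout library at the value for 0 reads, 0 had both knockout libraries there, 17 had a knockout library at 3 reads or fewer, and 37 at 10 or fewer. The lowest knockout library held 26 reads at the median, against 347 reads for the lowest wild type library. The lowest value in wild type was 13.1 reads.

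Histone variants account for 4 members. H2al3 and H2ap (1700054O13Rik) are single-exon X-linked genes of H2A-related histone variants, 2203 bases apart, and spermatids are known to use such variants while histones are exchanged for protamines. H2ap was at -1.19 and -0.86 log2 RPKM in knockout, against 3.20 and 3.04 log2 RPKM in wild type. H2bl1 (1700024P04Rik), an H2B-like protein, was at 0.12 and -0.81 log2 RPKM in knockout, against 4.27 and 4.27 log2 RPKM in wild type. H2al1m (1700012L04Rik) was at -0.34 and -1.30 log2 RPKM in knockout, against 1.57 and 1.41 log2 RPKM in wild type, and as part of a family of near-identical X-linked copies its value is uncertain. The 4 differences ran between -5.41 and -2.31 log2 units. This and the other role groups were formed after the values were seen.

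Named testis expressed are 8 members (Tex26, Tex29, Tex35, Tex37, Tex43, Tex48, Tex50 and Tex55), with differences of -5.70 to -2.28. Tex43 (1700065I17Rik), a protein of sperm microtubules, was at 1.68 and 0.33 log2 RPKM in knockout, against 4.09 and 3.98 log2 RPKM in wild type. Tex48 (1700018C11Rik) was at 2.84 and 2.15 log2 RPKM in knockout, against 5.03 and 4.52 log2 RPKM in wild type. Tex55 is 1 of 11 members that were higher in the second knockout library, with -2.20 and -1.91 log2 RPKM in knockout, against 2.23 and 2.21 log2 RPKM in wild type.

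Proteins of the sperm head and membranes included Eqtn (4930579C15Rik), equatorin of the acrosomal membrane, at 2.04 and 1.20 log2 RPKM in knockout, against 4.24 and 3.99 log2 RPKM in wild type. Sppl2c (4933407P14Rik), an intramembrane protease of spermatids, was at 0.18 and -1.17 log2 RPKM in knockout, against 3.78 and 3.68 log2 RPKM in wild type. Tmem247 (1700090G07Rik) was at 3.34 and 2.48 log2 RPKM in knockout, against 5.36 and 5.20 log2 RPKM in wild type. The 5 membrane proteins had differences of -5.07 to -2.37, with Tmem247 the most abundant and Smim23 the lowest in difference.

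Parts of the sperm tail and midpiece account for 3 members. Armc12 (4930511I11Rik), needed in mice for the mitochondrial sheath, was at 3.38 and 2.61 log2 RPKM in knockout, against 5.20 and 4.92 log2 RPKM in wild type. Cfap97d1 (1700006E09Rik), a protein of the flagellum, was at 1.11 and -0.17 log2 RPKM in knockout, against 3.66 and 3.83 log2 RPKM in wild type. With Stpg3 (4933433C11Rik), which has sperm-tail repeats, the 3 genes had differences of -3.28 to -2.06. The actin-like genes Actl11 and Actl10 differed by -2.56 and -2.05 log2 units, and the coiled-coil genes Ccdc187, Ccdc185 and Ccdc169 by -4.62 to -2.59.

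Other named members include a calcium-binding protein, genes of the ubiquitin system and a Spem relative. Cabs1 (4931407G18Rik), a calcium-binding protein first described in spermatids, was at 0.02 and -1.21 log2 RPKM in knockout, against 3.98 and 3.99 log2 RPKM in wild type. Trim80 (4933422H20Rik), of the tripartite motif family, was at -0.35 and -1.25 log2 RPKM in knockout, against 3.47 and 3.44 log2 RPKM in wild type. Ubqln5 (4931431F19Rik), a ubiquilin, was at -0.48 and -2.11 log2 RPKM in knockout, against 2.31 and 2.36 log2 RPKM in wild type. Spem2 (4933402P03Rik), a relative of the spermatid maturation gene Spem1, was at 0.08 and -0.89 log2 RPKM in knockout, against 3.53 and 3.48 log2 RPKM in wild type.

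The most abundant members in wild type kept a measurable level in knockout. Fam229a (1700125D06Rik) was at 4.17 and 3.53 log2 RPKM in knockout, against 6.04 and 5.84 log2 RPKM in wild type, a level 4.25-fold lower in knockout. The single-exon gene 4933411K16Rik was at 2.86 and 2.03 log2 RPKM in knockout, against 5.72 and 5.66 log2 RPKM in wild type, 9.45-fold lower in knockout. Scp2d1 (1700010M22Rik), which has a sterol carrier domain, was at 2.99 and 2.41 log2 RPKM in knockout, against 5.47 and 5.39 log2 RPKM in wild type. In each of these the groups lay well apart, and the second knockout library was the lowest of the 4.

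The others of the 8 highest followed the same order. For 1700003F12Rik the levels were 3.63 and 2.76 log2 RPKM in knockout, against 5.61 and 5.38 log2 RPKM in wild type. Sh3d21 (1700029G01Rik), which has an SH3 domain, had 3.66 and 3.11 log2 RPKM in knockout, against 5.46 and 5.37 log2 RPKM in wild type. Prr30 (1700110M21Rik), a proline-rich protein, had 3.51 and 3.11 log2 RPKM in knockout, against 5.53 and 5.25 log2 RPKM in wild type. With Tmem247 and 4933402J07Rik, at 3.38 and 2.78 log2 RPKM in knockout against 5.35 and 5.11 log2 RPKM in wild type, these had differences of -2.37 to -2.04 log2 units.

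**Figure D3:**
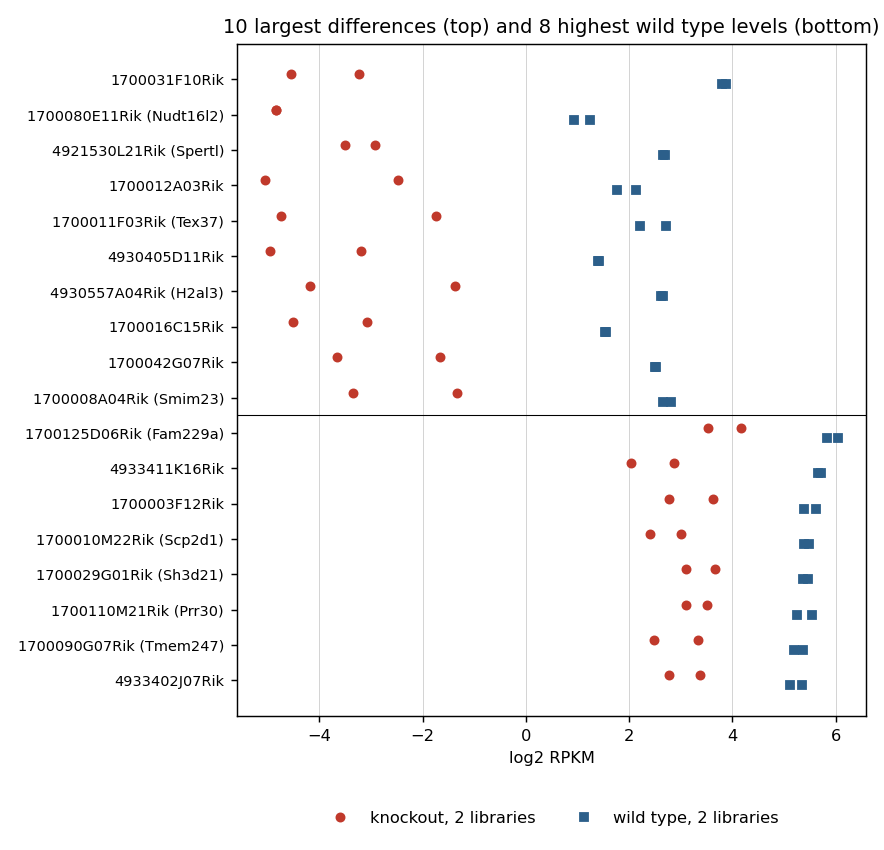
Levels in log2 RPKM are plotted for the 10 members with the lowest differences (top) and the 8 most abundant in wild type (bottom), with knockout libraries as red circles and wild type libraries as blue squares. In the upper genes the knockout circles lie at -1.34 or below, and in the lower genes they lie at 2.03 or above, left of the wild type squares in every gene.

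Other named genes were also abundant in wild type. Acsbg3 (1700061G19Rik), of the acyl-CoA synthetase family, was at 2.63 and 1.93 log2 RPKM in knockout, against 4.43 and 4.24 log2 RPKM in wild type. Fam24b (1700007K09Rik) was at 3.03 and 2.82 log2 RPKM in knockout, against 5.21 and 4.90 log2 RPKM in wild type. Erich3 (4922501L14Rik) was at 2.51 and 1.84 log2 RPKM in knockout, against 4.61 and 4.40 log2 RPKM in wild type. Their differences were -2.05, -2.13 and -2.34 log2 units. Spata31 (4930458L03Rik) was at 2.21 and 1.38 log2 RPKM in knockout, against 4.54 and 4.32 log2 RPKM in wild type, a difference of -2.63 log2 units.

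The most abundant non-coding members were 4930571K23Rik, 1700013D24Rik and 1700031F10Rik. The lincRNA 4930571K23Rik was at 2.31 and 1.45 log2 RPKM in knockout, against 4.68 and 4.41 log2 RPKM in wild type, though RefSeq types it as protein coding. The lincRNA 1700013D24Rik was at 0.99 and 0.34 log2 RPKM in knockout, against 4.61 and 4.38 log2 RPKM in wild type. Among the next 5, 1700061F12Rik was at 0.85 and 0.01 log2 RPKM in knockout, against 3.36 and 3.47 log2 RPKM in wild type. In these the knockout libraries lay well under the wild type libraries.

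The antisense RNA 4930442L01Rik was at 1.21 and 0.40 log2 RPKM in knockout, against 3.36 and 3.21 log2 RPKM in wild type. The processed transcript 4930406D18Rik was at 1.31 and 0.87 log2 RPKM in knockout, against 3.2 and 3.11 log2 RPKM in wild type. The lincRNA 4930557F10Rik was at 1.53 and 0.49 log2 RPKM in knockout, against 3.1 and 3.04 log2 RPKM in wild type. It overlaps, on the opposite strand, 4933404K08Rik, which was called higher in knockout. The lincRNA 4930584F24Rik was at 1.16 and 0.21 log2 RPKM in knockout, against 3.04 and 2.88 log2 RPKM in wild type.

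RNAs named for lying opposite another gene numbered 8 (Sox5os3, Tmem132cos, Asb17os, Ccdc34os, Saxo1os, Slfn5os, Kif16bos and St8sia3os), with differences of -4.85 to -2.69. Sox5os3 was at -2.55 and -4.19 log2 RPKM in knockout, against 1.499 and 1.47 log2 RPKM in wild type. All 8 were lower in the second knockout library than in the first.

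By their mm9 coordinates, 28 members overlap another gene of the table on the opposite strand, in 29 pairs. In 16 of these the partner reached a wild type mean of 1 log2 RPKM, and the partners' differences ran between -8.07 and 0.28, with a median of -0.996. Of the 16 partners, 8 were lower by at least 1 log2 unit, 5 of them by at least 2, and 5 lay within 0.5 of no difference. Exon models of both genes were found in Gencode M21 for 15 pairs, and in 8 of them the exons share bases (Necab3 is the partner of 2 members). The partner was lower by at least 1 log2 unit in 6 of these 8 pairs, against 1 of the 7 pairs without shared bases. In the 6 pairs the shared part was 3.90% to 82.2% of the member's exon bases. With Rab5a, and with Necab3 beside 1700003F12Rik, it was 8.93% and 7.27%. The reads of shared bases belong to both genes if strand was not used, and the part of sharing in these differences was not tested.

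Asb17os and Asb17, which encodes an ankyrin repeat and SOCS box protein, share 112 bases and differed by -4.36 and -4.20 log2 units. St8sia3os and St8sia3, a sialyltransferase gene, share 919 bases and differed by -2.69 and -2.35. Sox5os3 and Sox5 share 0 exon bases. Sox5 was at 0.06 and -0.40 log2 RPKM in knockout, against 1.76 and 1.45 log2 RPKM in wild type.

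In other pairs the partner was not lower. Ccdc34os was at -1.31 and -2.53 log2 RPKM in knockout, against 1.80 and 1.35 log2 RPKM in wild type, while Ccdc34, with no exon base in common, was at 2.70 and 2.70 log2 RPKM in knockout, against 2.36 and 2.52 log2 RPKM in wild type. Tex50 differed by -3.01 log2 units beside 0.10 for Ankrd45, with 0 shared bases. Pp2d1, named for a phosphatase domain, differed by -2.62 beside 0.28 for Rab5a, a GTPase of early endosomes, with 221 shared bases.

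**Figure D4:**
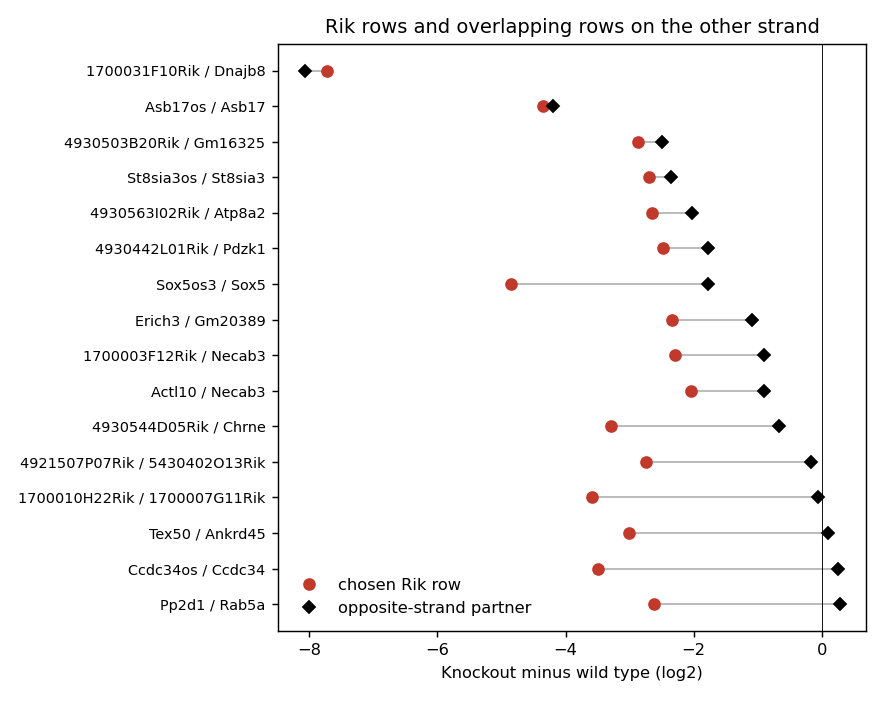
Each line is 1 of the 16 opposite-strand pairs whose partner has a wild type mean of at least 1 log2 RPKM, with knockout minus wild type (log2) as a red circle for the member and a black diamond for its partner. The members lie between -7.72 and -2.05, and the partners between -8.07 and 0.28.

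In all, 9 members lie within 5 kb of another member or overlap one. On chromosome 13, Spata31d1d was at -0.33 and -0.75 log2 RPKM in knockout, against 3.05 and 3.12 log2 RPKM in wild type, and next to it 4930528D03Rik was at -0.12 and -1.57 log2 RPKM in knockout, against 1.90 and 0.90 log2 RPKM in wild type. The third gene there, 1700014D04Rik, was at 1.498 and 1.07 log2 RPKM in knockout, against 3.48 and 3.08 log2 RPKM in wild type. Spata31 genes are a family of similar copies, so reads may be split between them. Spata32 and Efcab15 overlap on chromosome 11 and differed by -3.01 and -2.89 log2 units with no shared exon base. Spata32 (4933400C05Rik) was at -1.39 and -2.23 log2 RPKM in knockout, against 1.47 and 0.94 log2 RPKM in wild type. Efcab15 (1700023F06Rik), named for an EF-hand domain, was at 1.20 and 0.83 log2 RPKM in knockout, against 3.90 and 3.92 log2 RPKM in wild type. H2al3 lies beside H2ap on the X, and 1700003F12Rik beside Actl10 on chromosome 2. Actl10 (1700007I08Rik) was at 0.44 and 0.03 log2 RPKM in knockout, against 2.41 and 2.14 log2 RPKM in wild type.

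Most genes next to a member, but not overlapping it, differed little. There were 36 such genes within 5 kb with a wild type mean of at least 1 log2 RPKM, with a median difference of 0.03, and 24 lay within 0.5 of no difference. The 4 lower by at least 2 log2 units were Spem1 beside Spem2 (-4.76), Gm14146 beside 4921509C19Rik (-4.27), Fam154a beside Saxo1os (-4.08) and Acsbg2 beside Acsbg3 (-2.14). Among all 10181 genes without a Rik name that reached this wild type level, 233 (2.29%) were lower by at least 2 log2 units. Spem1, needed in mice to shed spermatid cytoplasm, was at -0.24 and -1.77 log2 RPKM in knockout, against 3.72 and 3.79 log2 RPKM in wild type.

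Within the knockout group the second library was lower than the first for 109 of the 120 members (90.8%), with a median difference of -0.84 log2 units and a range of -2.99 to 1.75. Over all genes tested 55.9% were lower in the second library, with a median of -0.03, and among the other 995 Rik genes of the same wild type level 68.1%, with a median of -0.11. The other 233 genes past both thresholds were lower in the second library in 224 cases (96.1%), with a median of -0.74. In wild type the second library was lower for 90 members (75%), with a median of -0.15. Over all genes tested 44.9% were lower in the second wild type library, with a median of 0.03. The same 2 knockout libraries had summed levels of elongating spermatid markers of 232 and 163 RPKM; the part of these markers in the difference was not tested. The 11 members that were higher in the second knockout library were 1700031F10Rik, Nudt16l2, 4930405D11Rik, Tex55, H2ap, 4930513O06Rik, Tmem239, 1700001C19Rik, 1700056E22Rik, 4930479D17Rik and 4930408O17Rik. The knockout reads were only 0 and 2 in 1700031F10Rik, 1 and 1 in Nudt16l2 and 1 and 3 in 4930405D11Rik. At so few reads the order of the libraries is uncertain. In 1700001C19Rik, 1700056E22Rik and 4930408O17Rik the estimated reads were also not higher in the second library, at 43 and 41, 65.6 and 63.2, and 25.1 and 23.0. These reads are not scaled to library depth, which was lower in the second knockout library.

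**Figure D5:**
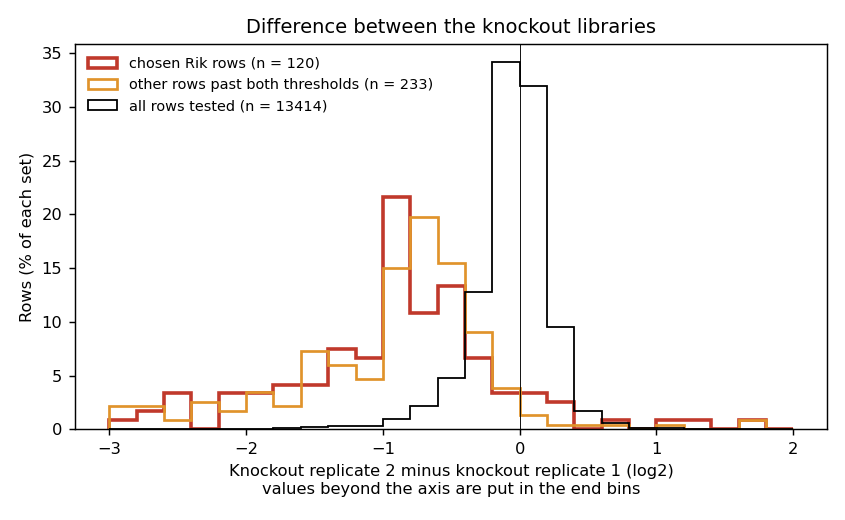
The histogram gives the second minus the first knockout library (log2) on the horizontal axis and the percentage of each set on the vertical axis, for the 120 members, the other 233 genes past both thresholds and all 13414 genes tested. The medians are -0.84, -0.74 and -0.03, and values beyond the axis are in the end bins.

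At the edge of the difference threshold, 1700067P10Rik, Sh3d21 and 1700014D04Rik were just inside with -2.04, -2.04 and -2.003 log2 units, while 1700013G24Rik, Iqca1l (4931409K22Rik) and 4930458D05Rik were just outside with -1.98, -1.96 and -1.94. At the level threshold, 4930583P06Rik, 4930443O20Rik and 4930568D16Rik were just inside with wild type means of 1.02, 1.02 and 1.03 log2 RPKM, while 6330444E15Rik, 4930486I03Rik and 4930571N24Rik were just outside with 0.98, 0.98 and 0.94. Of those inside, 1700067P10Rik was at 3.26 and 2.69 log2 RPKM in knockout, against 5.08 and 4.95 log2 RPKM in wild type. Of those outside, 1700013G24Rik was at 4.495 and 3.75 log2 RPKM in knockout, against 6.17 and 6.02 log2 RPKM in wild type. The lowest member by wild type level, 4930583P06Rik, was at -3.54 and -4.38 log2 RPKM in knockout, against 1.04 and 0.996 log2 RPKM in wild type, from 3 knockout reads in all against 96 in wild type, a ratio of 29.7-fold (counting interval 9.87 to 147). Genes just inside and just outside the difference threshold are 0.1 log2 units or less apart.

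The next at the level threshold, 4930443O20Rik, was at -1.76 and -2.60 log2 RPKM in knockout, against 1.20 and 0.85 log2 RPKM in wild type. 4930568D16Rik was at -1.02 and -3.18 log2 RPKM in knockout, against 1.18 and 0.89 log2 RPKM in wild type. Just outside the difference, 4931409K22Rik was at 2.24 and 0.87 log2 RPKM in knockout, against 3.97 and 3.06 log2 RPKM in wild type. 4930458D05Rik, also outside, was at 0.31 and -0.66 log2 RPKM in knockout, against 1.96 and 1.58 log2 RPKM in wild type. In these 4 genes the 2 knockout libraries lie further apart than the 2 wild type libraries.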

How the data were processed

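RNA of whole testes at 24 days was sequenced in 2 knockout and 2 wild type libraries; per the labels' protocols, these were TruSeq RNA libraries. The authors deposited log2 RPKM values per gene, with mm9 coordinates; RPKM divides reads by transcript length and library depth. Bowtie2, bcl2fastq 2.17.1.14 and mm9 come from the submitters' processing notes. Not given in the sources used here are the counting tool, the annotation and strand use. Of 26127 table entries, 59 (0.226%) name no gene and were left out. Every sample column was matched to a label.

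Reads were estimated from the steps of single-exon genes: 95.1% to 96.9% of low values were whole within 2%, and 0 reads carries 0.9 of a read. Counting intervals are exact (Clopper-Pearson) and cover counting error only. Gene types and exon lengths came from Gencode M21 by Ensembl identifier. RefSeq names and types were matched by gene name, or by a synonym that no other RefSeq gene holds. The coordinates of both sources were not mixed with mm9.

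Genes with a mean of at least 0 log2 RPKM over the 4 libraries entered limma 3.58.1 (R 4.3.3; statmod 1.5.0; trend and robust estimation, two-sided, Benjamini-Hochberg over all genes tested), a fit that was tested on simulated data, and no pseudocount was added. With 2 against 2, an exact permutation test cannot give a two-sided p below 0.333, and p-values measure only the spread between these libraries. Named members were the 10 lowest by difference, the 8 highest in wild type, those at the thresholds or near another member, up to 8 non-coding and up to 15 named by wild type level; others were chosen after their values were seen. Members and lists were chosen with earlier results of these data known.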

Additional observations from a re-analysis of the deposited data

How the results depend on the processing

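The membership rule gave 120 genes; with a difference of at least 3 it gave 57, all of them members, and on the log2(RPKM + 1) scale 59. Leaving out each library in turn gave 94 to 141. The members' median difference was -1.99 on the log2(RPKM + 1) scale and -3.39 to -2.52 with a library left out. The choice of library left out moved limma's counts: 0 to 1308 genes lower (959 with all libraries), 0 to 494 higher (163) and 0 to 90 members lower (80), the zeros without the first wild type library, where 2357 genes had an unadjusted p under 0.05. Adad2 lay between -1.26 and -0.838, and missed the threshold without either wild type library (-0.957, adjusted p = 0.143 and -1.14, adjusted p = 0.0838). A mean of at least 2 log2 RPKM left 37 members, 33 called lower, with 637 genes (7.48%) lower in all. Without a filter all 120 members were tested and 100 called lower, with 1078 genes (4.14%) lower in all and 97 higher. The choice of members fixes their counts in large part. The lone library of a group was assumed to vary like the other group, and the cause of these changes was not tested.

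Same-numbered libraries deviated together with a correlation of 0.331 over 2 pairs, but the labels, which number the libraries alike in both groups, do not say what a shared number stands for, so they were not treated as paired. With the replicate number as a block, 1477 genes were lower, 1837 higher and 82 members lower; higher calls were 55.4% of all calls, against 14.5% without the block and 25.7% with a mean of at least 2. At 29400000 to 36900000 reads, knockout levels of 17 members rest on a library of 3 reads or fewer.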
